A study of Mus musculus with 60 samples.

Results

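The comparison concerned what the supplement called VC did on its own, before any reprogramming factor was induced, to tail tip fibroblasts of a mouse with a defective Ercc1 gene. VC was ascorbic acid (vitamin C) at 50 µg/ml together with the GSK3 inhibitor CHIR-99201, as the labels spell it, at 3 µM. No library used here was given either compound without the other, so their effects cannot be told apart. The data were 6 of the 60 samples of the series: 3 libraries of Ercc1 cells at day 0 with VC and 3 at day 0 without it, chosen by their labels alone, with no doxycycline in either group. All 6 came from cells labelled 4FJ_ERCC1_(d/-), which the study calls D/KO, from 8 week old male mice. These cells carry the OSKM reprogramming cassette, switched on by doxycycline through rtTA, and a null and a hypomorphic Ercc1 allele, and both groups share all of this. For how long VC was given before the day 0 harvest is not given in the sources used here.

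Comparisons set beside it used the same supplement. In the line called WT (4FJ_(+/-)_OCT4-GFP, 22 weeks, female, with a reprogramming cassette and no Ercc1 allele named in the label), 3 libraries with VC and 3 without were compared at day 0. In D/KO cells at day 2 and at day 4 of doxycycline at 2 µg/ml, 3 libraries with VC were compared with 3 without at each day. Genotype, sex, age and line of origin differ together between D/KO and WT, so that a difference between them cannot be told apart by source. The libraries of a group were labelled as separate samples, but nothing in the labels says that they came from separate animals. The p-values thus measure a spread between libraries of a group that may be technical, pooled over all 12 groups of the table. D/KO libraries at day 0 tended to be spread more widely. Each library's median gene lay 0.164 to 0.229 on the log2 scale from the others of its group, beside 0.105 to 0.184 in WT. The pooled p-values for D/KO cells at day 0 may therefore be too small.

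Wnt proteins bind Frizzled and LRP receptors and stop a destruction complex of Axin, Apc, Gsk3 and casein kinase from marking beta-catenin for degradation. Beta-catenin then enters the nucleus and, with TCF and LEF proteins, turns on target genes, several of which encode inhibitors of the same pathway and so form a feedback loop. An inhibitor of GSK3 acts inside the cell at the destruction complex, without a Wnt ligand. Ascorbate keeps the iron of 2-oxoglutarate dependent dioxygenases reduced, a family that includes the hydroxylases of collagen, the hydroxylases that mark HIF proteins for degradation, and the TET and JmjC enzymes that demethylate DNA and histones. In dermal fibroblasts Wnt signalling is known for its part in matrix production and in the upkeep of the hair follicle.

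Library totals were alike, from 16647820 to 18230424 counts in the 6 libraries, and each library's median gene lay 0.164 to 0.229 on the log2 scale from the other libraries of its group, so none stood far apart. The libraries with VC spent more of their counts on a few genes: the 50 most abundant genes took 32.7% to 36.1% of counts with VC and 24.3% to 27.5% without. Levels are given below as CPM, a gene's counts scaled to libraries of 1 fixed size after adjustment by the TMM method, which gave factors of 0.9312 to 0.9514 without VC and 0.7727 to 0.8866 with it. Differences are log2 fold changes from a quasi-likelihood model in edgeR over all 36 libraries of the table, with p adjusted over all genes (Benjamini-Hochberg), and a gene is said to have risen or fallen where the adjusted p was under 0.05.

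Ercc1 itself, the partner of Xpf in the nuclease of nucleotide excision repair (chr7:19078703-19090449, plus strand, GRCm39), was at 11.9, 11.9 and 18.6 CPM without VC and 17.4, 15.6 and 11.9 CPM with it. The groups overlapped (log2 fold change 0.08, SE 0.168, adjusted p = 0.782), and the gene shares 3.41% of its exon bases with Polr1g on the opposite strand. Counts per gene do not show the allele, so they neither check nor contradict the genotype label.

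Of 15832 genes tested, 1919 rose (12.1%) and 2221 fell (14.0%) with VC, of which 743 and 752 changed at least 2-fold. Every count of called list members in D/KO cells at day 0 below is to be read beside these 12.1% and 14.0%. The median size of a called change was 0.743 on the log2 scale. CPM values did not overlap between the groups in 3598 of the 4140 called genes. Over all 15832 genes tested they did not overlap in 2333 genes that were higher and 2625 that were lower. The calls rest on the same values, so this separation is no further support for them. The median over all genes was -0.00414. Scaled to library totals alone it was -0.18, and the calls then split into 1215 higher and 4101 lower, so small changes below are relative to a typical gene. A fit of the 6 libraries alone called 2523 genes, 1238 higher and 1285 lower.

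**Figure D1:**
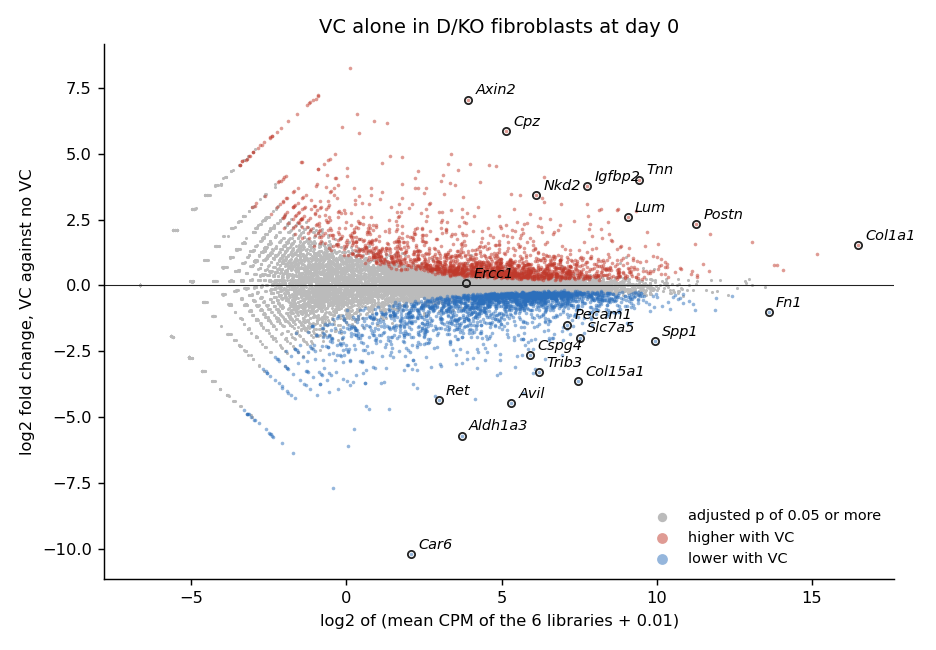
Each point is 1 of 15832 genes in D/KO cells at day 0, with its mean CPM over the 6 libraries (log2 of CPM + 0.01) across and the log2 fold change with VC upwards. Genes that rose are red, genes that fell blue and others grey, and 20 genes named in the text are circled. Of these Axin2 lies highest at 7.04, Car6, which had no count with VC, lies lowest, and Ercc1 is near 0. The slanted rows at the left are genes of few counts.

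Ranks are among called genes with separate groups, a proper symbol and at least 5 CPM in the higher group. Among these the largest rise was that of Axin2, a scaffold of the destruction complex and a direct feedback target of beta-catenin (chr11:108811175-108841609, plus strand). It was at 0.129, 0.293 and 0.236 CPM without VC and at 33.8, 24.1 and 32.3 CPM with it, 11 against 1303 counts. Every VC library lay far above every control, and the fitted rise was 131-fold (log2 fold change 7.04, SE 0.361, adjusted p = 2.1e-17). Cpz, a secreted carboxypeptidase with a Frizzled-like domain that binds Wnt proteins (chr5:35659562-35683042, minus strand), came next, at 1.61, 1.06 and 0.943 CPM without VC and 76.7, 78.8 and 51.0 CPM with it. Its groups were also far apart, with a fitted rise of 57.3-fold (5.84, SE 0.231, adjusted p = 2.79e-20).

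Feedback genes of the Wnt pathway were split. Of 18 listed, 15 passed the filter on low counts, 7 rose and 3 fell, and the median log2 fold change was 1.63 beside -0.00414 over all genes. Nkd2, which binds Dishevelled and restrains the pathway, was at 7.03, 9.03 and 19.3 CPM without VC and 130, 95.9 and 156 CPM with it (3.43, SE 0.262, adjusted p = 8.96e-13). The third control library was the highest for Nkd2 and still lay far under the VC libraries. Its paralogue Nkd1 was much less abundant, at 2.45, 2.05 and 0.766 CPM without VC and 6.47, 5.35 and 4.42 CPM with it (1.63, SE 0.307, adjusted p = 8.62e-05).

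Apcdd1, a membrane protein that binds Wnt and LRP and is known from hair follicle disease, was at 17.6, 20.3 and 28.4 CPM without VC and 140, 142 and 108 CPM with it. The groups were separate, and the rise was 2.55 (SE 0.123, adjusted p = 4.23e-18). Lgr5, the R-spondin receptor that marks stem cells of gut and hair follicle, was at 20.2, 21.4 and 8.78 CPM without VC and 74.6, 84.0 and 49.6 CPM with it (2.05, SE 0.225, adjusted p = 5.65e-09). Tnfrsf19 and Tcf7, a receptor of the TNF family and a TCF factor, rose from low levels, Tcf7 from 0.645, 1.88 and 2.06 CPM to 3.76, 3.46 and 3.93 CPM (1.26, SE 0.32, adjusted p = 0.00279).

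The 3 feedback genes that fell were Trabd2b, Lgr6 and Sp5. Trabd2b encodes a protease that cuts Wnt proteins, and it was at 13.7, 21.1 and 17 CPM without VC and 8.03, 6.48 and 6.60 CPM with it (-1.29, SE 0.186, adjusted p = 1.13e-06). Lgr6, the relative of Lgr5, fell by 1.18 (SE 0.286, adjusted p = 0.00176), a call that was lost without the third control library. Sp5, a zinc finger repressor that beta-catenin induces in many cells, was at 6.38, 2.76 and 6.90 CPM without VC and 1.29, 2.11 and 2.11 CPM with it (-1.54, SE 0.501, adjusted p = 0.0238), and its call was lost in 3 of the 6 fits that each left out a library. Lef1 (-0.77, adjusted p = 0.206), Notum (3.00, adjusted p = 0.109) and Wif1 (1.28, adjusted p = 0.0998) did not pass, like Rnf43 and Znrf3, and Dkk1, Kremen2 and Fgf20 had too few counts to test.

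Matches to the core letters that TCF and LEF factors bind (AACAAAG or, with another start, TACAAAG as well as ATCAAAG and lastly TTCAAAG, on either strand) were sought in the 250 bases before the start of each gene, in RefSeq sequence of build GRCm38.p6. They were in 4 of the 12 feedback genes with an entry (Lef1, Sp5, Dkk1 and Tnfrsf19) and in 16.8% of 27025 genes. The window of Tnfrsf19, which rose, and that of Sp5, which fell, are shown because the changes in these genes went opposite ways although both windows hold the letters. They are read 5′ to 3′ on the strand of the gene, minus for Tnfrsf19 (chr14:61038157-61038215) and plus for Sp5 (chr2:70474675-70474851), with the matches in capitals. The letters were not found in the window of Axin2.
Tnfrsf19: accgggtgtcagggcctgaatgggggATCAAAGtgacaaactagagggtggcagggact
Sp5: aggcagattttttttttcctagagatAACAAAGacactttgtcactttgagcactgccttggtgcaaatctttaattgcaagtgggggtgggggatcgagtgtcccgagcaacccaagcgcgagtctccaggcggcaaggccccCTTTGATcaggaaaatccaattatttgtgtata

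Among the Wnt ligands, 4 of 14 tested rose and 3 fell (median 0.0). Wnt9a, a ligand of the beta-catenin branch, was at 13.6, 10.6 and 11.3 CPM without VC and 29.8, 24.0 and 30.3 CPM with it (1.25, SE 0.166, adjusted p = 2.77e-07). Wnt5a, the abundant ligand of the branches that do not use beta-catenin, was at 286, 290 and 296 CPM without VC and 393, 442 and 489 CPM with it (0.60, SE 0.103, adjusted p = 2.17e-05). Each group was tight and they did not overlap. Wnt5b rose likewise (1.14, SE 0.223, adjusted p = 0.000144), and Wnt10a rose from a low level (1.85, adjusted p = 0.0176), a call lost in 3 fits without 1 library. Wnt4 fell from 29.5, 26 and 26 CPM to 13.1, 10.9 and 15 CPM (-1.06, SE 0.18, adjusted p = 1.9e-05). Wnt10b and Wnt2 fell from low levels, Wnt2 with groups that overlapped (-1.99, adjusted p = 0.00119, and -1.62, adjusted p = 0.00661, the latter lost in 2 alternatives).

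Secreted modulators moved both ways, 4 of 14 tested up and 5 down (median -0.186). Cthrc1, a secreted glycoprotein that stabilises Wnt and Frizzled complexes, was at 34.0, 38.3 and 64.6 CPM without VC and 362, 455 and 342 CPM with it (3.08, SE 0.187, adjusted p = 2.4e-15). Sfrp1, a decoy receptor, rose from 55.1, 61.9 and 44.0 CPM to 118, 109 and 131 CPM (1.15, SE 0.132, adjusted p = 1.48e-08). Sfrp2 (0.87, adjusted p = 0.00758) and Rspo4 (1.30, adjusted p = 0.0123) were also called, but their groups overlapped and each call was lost in 3 alternatives.

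The R-spondins strengthen Wnt signalling by protecting Frizzled receptors from removal. Rspo3 was at 22.5, 25.5 and 12.9 CPM without VC and 2.72, 2.86 and 2.11 CPM with it (-2.98, SE 0.255, adjusted p = 1.51e-11). Its controls were spread, but the lowest lay well above the highest VC library. The gene shares 13.1% of its exon bases with Gm48159 on the opposite strand, which had no counts. Rspo2 fell by 1.08 (SE 0.244, adjusted p = 0.000837). Frzb, a decoy receptor, and Dkk3, of the Dickkopf family, fell too, Frzb from 20.8, 15.2 and 20.3 CPM to 4.92, 5.20 and 7.93 CPM (-1.64, SE 0.247, adjusted p = 2.42e-06) and Dkk3 from 348, 366 and 358 CPM to 243, 259 and 220 CPM (-0.57, SE 0.0762, adjusted p = 3.17e-07). Sostdc1 was called lower, but from levels close to no counts, so no fold is given, and the call was lost without each of 5 libraries, left out in turn. Dkk2, an LRP antagonist, was not called, at 574, 554 and 435 CPM without VC and 662, 489 and 445 CPM with it (0.03, adjusted p = 0.902).

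Of 15 receptor genes tested, 2 rose and 4 fell (median -0.174), beside 12.1% and 14.0% of all genes. Fzd4 was at 34.5, 36.2 and 47.0 CPM without VC and 6.67, 5.65 and 7.86 CPM with it (-2.54, SE 0.191, adjusted p = 5.43e-13), and Lgr4, the broadly expressed R-spondin receptor, at 132, 137 and 107 CPM without VC and 33.5, 32.2 and 48.0 CPM with it (-1.72, SE 0.137, adjusted p = 2.26e-12). Neither pair of groups overlapped. Fzd1 went the other way, from 401, 337 and 337 CPM to 542, 654 and 647 CPM (0.78, SE 0.103, adjusted p = 2.6e-07), as did Fzd2 (0.61, SE 0.107, adjusted p = 3.5e-05). Ryk (-0.29, adjusted p = 0.0249) and Fzd6 (-0.53, adjusted p = 0.0303) fell by small amounts, and each call was lost in several alternatives.

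Of 23 genes of the destruction complex and its nuclear partners 1 was higher and 3 were lower (median -0.137), beside 12.1% and 14.0% of all genes. Beta-catenin itself, Ctnnb1, was at 534, 547 and 635 CPM without VC and 404, 447 and 445 CPM with it (-0.41, SE 0.0837, adjusted p = 0.00029). The groups did not overlap, but the call was lost when the 6 libraries were fitted alone. Tcf7l1, mostly a repressor, fell by 0.79 (SE 0.153, adjusted p = 0.000127) and the co-repressor Tle1 by 0.48 (adjusted p = 0.00632, lost in 2 alternatives). Dvl2, a Dishevelled, was the member that rose (0.52, SE 0.106, adjusted p = 0.000221), and it shares 18.3% of its exon bases with Acadvl. Gsk3b, a target of the inhibitor, was not called (-0.29, adjusted p = 0.0765).

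**Figure D2:**
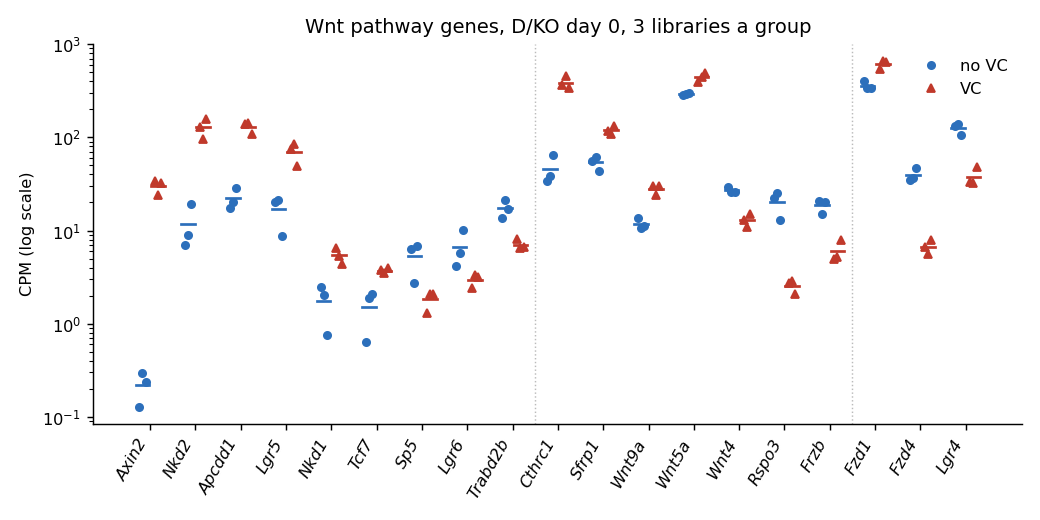
CPM on a log axis of 19 Wnt pathway genes in D/KO cells at day 0, with 3 libraries without VC as blue circles and 3 with VC as red triangles, a bar at each mean, and dotted lines between feedback genes, ligands with secreted modulators, and receptors. Axin2, Nkd2, Apcdd1 and Cthrc1 have their red points far above the blue, and Rspo3, Fzd4 and Lgr4 far below.

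Other large rises were of genes with varied roles. Nell2, a secreted glycoprotein best known from neurons, was at 0.258, 0.938 and 0.648 CPM without VC and 19.6, 24.7 and 15.3 CPM with it (4.98, SE 0.343, adjusted p = 6.87e-14). Gdf6, a BMP family ligand of joints, was at 1.81, 0.938 and 1.06 CPM without VC and 28.6, 32.0 and 30.7 CPM with it (4.59, SE 0.327, adjusted p = 1.49e-13). Bmp3, a ligand that restrains other BMPs, rose from at most 0.528 CPM to 7.64, 8.36 and 4.21 CPM (4.88, SE 0.449, adjusted p = 9.06e-11). In these 3 genes every VC library lay several times above every control.

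Il33, an alarmin cytokine, rose from 1.03, 1.41 and 0.884 CPM to 24.6, 25.8 and 18.5 CPM (4.36, SE 0.328, adjusted p = 5.85e-13). Col25a1, a transmembrane collagen, rose by 4.62 (SE 0.449), the microfibril protein Mfap4 by 4.56 (SE 0.364), and the lipid enzyme Gdpd2 by 4.33 (SE 0.405), with adjusted p of 3.31e-10, 2.6e-12 and 1.36e-10. For Mfap4 the third VC library was at 19.5 CPM beside 52.1 and 68.6 CPM in the others. Sbspon rose by 4.52 (SE 0.179), but 72.8% of its exon bases lie under Gm37509, so its counts are uncertain.

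Under the limits on ranks given for Axin2, the largest fall was that of Car6, a secreted carbonic anhydrase. Car6 was at 7.80, 8.15 and 9.31 CPM without VC and without a count in the 3 VC libraries. Its 418 counts fell to 0, at least 121-fold lower when 3 counts over the group are taken as the floor (adjusted p = 2.67e-10). Aldh1a3, which makes retinoic acid, was at 21.0, 22.8 and 33.4 CPM without VC and 0.971, 0.0753 and 0.351 CPM with it, a fitted fall of 52.1-fold (-5.70, SE 0.262, adjusted p = 1.41e-18). The lowest control was far above the highest VC library.

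Avil, an actin binding protein of the villin family, was at 75.9, 73.9 and 78.8 CPM without VC and 4.40, 3.16 and 2.74 CPM with it (-4.46, SE 0.199, adjusted p = 6.11e-19). Tenm4, a teneurin, fell from 31.2, 38.9 and 30.4 CPM to 1.75, 2.03 and 1.26 CPM (-4.32, SE 0.221, adjusted p = 2.1e-17), and Ccdc3, a secreted protein of endothelium and fat, from 101, 91.6 and 101 CPM to 3.76, 6.85 and 6.74 CPM (-4.09, SE 0.16, adjusted p = 2.79e-20). In all 3 every VC library lay far below every control. Ret, the GDNF receptor, fell by 4.36 (SE 0.34), Hey2, a Notch effector, by 4.20 (SE 0.301), Ppef1, a phosphatase, by 3.90 (SE 0.354) and Extl1, of heparan sulfate synthesis, by 3.73 (SE 0.429), with adjusted p between 1.8e-13 and 1.48e-08. Col15a1, a basement membrane collagen, fell from 359, 345 and 280 CPM to 27.6, 28.8 and 23.4 CPM (-3.62, SE 0.158, adjusted p = 3.69e-19).

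Collagen genes rose more often than they fell. Of 35 chains tested, 16 rose and 7 fell (median 0.682), and all chains together took 14.2%, 10.7% and 9.4% of counts without VC and 19.5%, 22.2% and 21.8% with it. Col1a1, the main chain of type I collagen, was at 59622, 40930 and 42150 CPM without VC and 103863, 164564 and 139377 CPM with it (1.51, SE 0.161, adjusted p = 2.55e-09). Its partner Col1a2 rose from 29130, 20603 and 17395 CPM to 47831, 54862 and 52416 CPM (1.21, SE 0.137, adjusted p = 1.06e-08). Neither overlapped between groups, and these levels are CPM, with no correction for length.

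Less abundant chains moved further. Col7a1, of the fibrils that anchor epidermis to dermis, was at 46.3, 29.7 and 44.0 CPM without VC and 185, 171 and 233 CPM with it (2.29, SE 0.18, adjusted p = 1.84e-12). Col11a1, a minor fibril chain of cartilage, rose from 104, 86.6 and 42.8 CPM to 416, 361 and 386 CPM (2.31, SE 0.205, adjusted p = 3.41e-11), Col24a1 from 17.2, 16.0 and 13 CPM to 82.0, 48.1 and 67.4 CPM (2.10, SE 0.205, adjusted p = 3.64e-10) and Col4a5, of basement membranes, by 1.68 (SE 0.158, adjusted p = 1.41e-10). In each of them the lowest VC library was above the highest control.

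Of 13 collagen hydroxylases and the proteins that work in complex with them, 6 rose and 1 fell (median 0.323), a split that became 4 and 4 when library totals alone set the scale. P3h4, a non-catalytic member of the lysyl hydroxylation complex, was at 162, 151 and 155 CPM without VC and 253, 254 and 220 CPM with it (0.64, SE 0.0825, adjusted p = 1.64e-07), P4ha3 rose by 0.67 (SE 0.127, adjusted p = 8.23e-05) and Crtap, a cofactor of prolyl hydroxylation, by 0.49 (SE 0.1, adjusted p = 0.000242). P3h3 rose by 0.73 with overlapping groups, and the rises of P3h1 and of P4hb, a disulfide isomerase that is the beta subunit of prolyl hydroxylase, were lost under library totals. The main prolyl hydroxylase subunit P4ha1 was not called, at 926, 901 and 864 CPM without VC and 810, 885 and 916 CPM with it (-0.04, adjusted p = 0.782). P3h2 fell from a low level (-1.88, adjusted p = 0.000632), and 28.4% of its exon bases are shared with Gm4524.

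Of 27 genes that take up ascorbate or need it at chromatin 3 were higher and 3 lower (median -0.071), near the 12.1% and 14.0% of all genes. The ascorbate carrier Slc23a2 was at 61.2, 62.9 and 67.7 CPM without VC and 55.1, 63.0 and 74.8 CPM with it (0.01, adjusted p = 0.983). Slc2a3, a glucose carrier that also takes up oxidised vitamin C, rose by 1.02 (SE 0.21, adjusted p = 0.000289), Fto, an RNA demethylase, by 0.47 and Alkbh1 by 0.73, the last with groups that overlapped and a call lost without the first VC library. Slc2a1 (-0.57, adjusted p = 0.0041), Kdm6a (-0.50, adjusted p = 0.0034) and Kdm4a (-0.27, adjusted p = 0.0254) were called lower, calls lost in 3, 1 and 4 of 12 alternatives. Tet1 (0.73, adjusted p = 0.195), Tet2 (0.75, adjusted p = 0.136) and Tet3 (-0.07, adjusted p = 0.809) did not pass.

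Among HIF hydroxylases and hypoxia genes 2 of 32 rose and 10 fell (median -0.172, and 1 against 19 under library totals). Ndrg1, a stress gene induced in low oxygen, was at 138, 132 and 123 CPM without VC and 38.9, 52.8 and 51.3 CPM with it (-1.46, SE 0.125, adjusted p = 1.51e-11). Ero1a, an oxidase of protein folding, fell from 316, 313 and 338 CPM to 155, 149 and 213 CPM (-0.90, SE 0.124, adjusted p = 4.84e-07), and Egln1, the hydroxylase that marks HIF proteins, from 338, 303 and 351 CPM to 174, 239 and 245 CPM (-0.59, SE 0.106, adjusted p = 4.09e-05). Bnip3l (-0.65), of mitophagy, and Epas1 (-0.96), which encodes HIF2, fell too, and Vegfa was called lower with groups that overlapped (-0.49, adjusted p = 0.00825, lost in 2 alternatives). Against these, Car9 rose (1.89, adjusted p = 0.00147, 28.6% of exon bases shared with Gm12454), and Hif1a was called higher (0.31, adjusted p = 0.0152) in a call lost in 5 of 12 alternatives, library totals among them, while Pdk1 was not called (-0.08, adjusted p = 0.698). All cultures were kept at 3% oxygen.

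Targets of ATF4, the transcription factor of the integrated stress response that turns on amino acid synthesis and uptake, mostly fell: 17 of 24 were lower and 1 rose (median -0.767). The counts were 1 and 16 to 18 under the other tools, scalings and filters on low counts and with each of the 6 libraries left out. The limit on fold change was not applied to lists. Trib3, a pseudokinase that feeds back on ATF4, was at 189, 150 and 61.0 CPM without VC and 14.8, 12 and 13.8 CPM with it (-3.30, SE 0.274, adjusted p = 7.73e-12). Its controls were widely spread and all lay far above the VC libraries. Cth, which makes cysteine, fell from 17.4, 14.1 and 12.7 CPM to 1.55, 1.58 and 2.18 CPM (-3.05, SE 0.202, adjusted p = 2.88e-14).

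Slc7a5, the leucine carrier, was at 272, 290 and 312 CPM without VC and 57.0, 82.3 and 82.5 CPM with it (-1.98, SE 0.131, adjusted p = 2.63e-14). Asns, asparagine synthetase, fell from 209, 218 and 247 CPM to 75.9, 99.0 and 124 CPM (-1.18, SE 0.121, adjusted p = 1.15e-09), and Atf5 from 632, 525 and 592 CPM to 260, 337 and 282 CPM (-0.99, SE 0.127, adjusted p = 1.26e-07). No library of either group reached the other in these 3 genes. Stc2, a secreted stanniocalcin, was the member that rose, from 32.6, 27.5 and 20.1 CPM to 54.8, 51.3 and 46.9 CPM (0.93, SE 0.115, adjusted p = 5.9e-08).

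ATF4 with a C/EBP partner binds composite sites with the letters TGATGNAA. These letters were in the 250 bases before the start of 7 of 21 targets with a RefSeq entry and of 3.91% of 27025 genes, and 5 of the 14 matched members that fell had them. The windows of Asns (chr6:7693210-7693258), Slc7a11 (chr3:50443627-50443705) and Atf3 (chr1:191183410-191183469) are shown since all 3 genes fell and carry the letters, Slc7a11 2 times and in both orientations. All are on the minus strand of GRCm38.p6 and are read 5′ to 3′ on the strand of the gene, with the matches in capitals. Slc7a11, the cystine carrier, fell by 0.90 (SE 0.216, adjusted p = 0.0017) and Atf3 by 0.99 (SE 0.316, adjusted p = 0.0178, lost in 3 alternatives).
Asns: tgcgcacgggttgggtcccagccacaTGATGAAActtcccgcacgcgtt
Slc7a11: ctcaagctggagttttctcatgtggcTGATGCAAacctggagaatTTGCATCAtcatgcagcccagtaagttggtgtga
Atf3: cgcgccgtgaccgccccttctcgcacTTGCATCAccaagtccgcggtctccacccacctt

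Notch pathway genes fell or were not called: 10 of 16 fell and 0 rose (median -1.06). The ligand Jag1 was at 88.6, 91.9 and 66.4 CPM without VC and 21.5, 17.2 and 21.1 CPM with it (-2.04, SE 0.162, adjusted p = 2.21e-12). Of the receptors, Notch1 fell from 76.5, 80.2 and 93.8 CPM to 38.7, 45.9 and 34.5 CPM (-1.07, SE 0.158, adjusted p = 1.63e-06), Notch4 from 92.5, 67.0 and 79.3 CPM to 24.3, 30.3 and 24.6 CPM (-1.59, SE 0.175, adjusted p = 5.91e-09) and Notch3 by 1.04 (SE 0.175, adjusted p = 1.63e-05). The groups did not overlap in any of these. The effector Heyl fell from 5.42, 8.04 and 6.25 CPM to 0.712, 0.452 and 0.912 CPM (-3.23, SE 0.45, adjusted p = 1.19e-06).

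Markers of cell types other than fibroblasts moved at the same time. The cells were labelled tail tip fibroblasts, and the 24 fibroblast markers summed to 87860 to 128931 CPM without VC and 191778 to 261744 CPM with it, of which collagen is the larger part. Endothelial markers were nevertheless present in the D/KO cultures: their 10 members summed to 876 to 949 CPM without VC and 320 to 361 CPM with it, 9 falling and 1 rising (median -1.46), and their part in the changes of Notch4, Jag1, Heyl and other vessel genes was not tested. In bulk samples, fewer cells of a type and less RNA per cell cannot be told apart. Pecam1, an adhesion protein of endothelium, was at 191, 213 and 210 CPM without VC and 79.0, 69.7 and 70.0 CPM with it (-1.49, SE 0.14, adjusted p = 1.49e-10), and Cdh5, the cadherin of endothelial junctions, at 238, 297 and 301 CPM without VC and 112, 116 and 82.5 CPM with it (-1.43, SE 0.176, adjusted p = 5.87e-08). Each VC library was far under the lowest control. Tek fell by 1.79 (SE 0.116) and Flt1 by 1.93 (SE 0.217). Vwf, the von Willebrand factor, rose instead, from 1.29, 0.293 and 1.12 CPM to 17.6, 14.7 and 16.9 CPM (4.19, SE 0.496, adjusted p = 2.84e-08).

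Pericyte markers summed to 269 to 294 CPM without VC and 71.7 to 93.5 CPM with it, with 4 of 6 tested lower and 0 higher (median -1.60). Cspg4, the NG2 proteoglycan, was at 92.5, 103 and 115 CPM without VC and 15.3, 19.1 and 15.6 CPM with it (-2.64, SE 0.125, adjusted p = 2.81e-18), and Mcam at 99.2, 93.4 and 92.5 CPM without VC and 20.9, 22.2 and 20.6 CPM with it (-2.16, SE 0.184, adjusted p = 1.44e-11). Both were far lower in every VC library.

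Cartilage and bone markers summed to 1514 to 2140 CPM without VC and 380 to 571 CPM with it, mostly Spp1, osteopontin, which fell from 1328, 1416 and 2002 CPM to 314, 294 and 489 CPM (-2.11, SE 0.252, adjusted p = 3.24e-08). Sox9 (-1.98, SE 0.184) and Comp (-2.63, SE 0.184) fell, and Alpl, alkaline phosphatase, rose from 0.516, 0.352 and 1.59 CPM to 9.39, 14.8 and 8.49 CPM (3.71, SE 0.415, adjusted p = 8.03e-09). The 8 members tested thus gave 1 rise and 3 falls (median -0.877).

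Melanocyte markers summed to 36.8 to 40.4 CPM without VC and 12 to 15.9 CPM with it, with 3 of 7, Tyr, Dct and Mlana, at 0 in all 6 libraries. Of the 3 tested, 1 rose and 1 fell (median -0.151). Kit, which mast and other cells also use, fell (-2.75, SE 0.289, adjusted p = 2.05e-08). Pmel, of the pigment granule, rose from 0.838, 1.23 and 0.413 CPM to 2.33, 2.18 and 2.25 CPM (1.44, SE 0.425, adjusted p = 0.0104), a call lost without the third control library. Macrophage markers were low, 19.9 to 20.4 CPM without VC and 16.5 to 18.1 CPM with it (0 of 12 higher, 3 lower), as were keratinocyte markers, 17.7 to 26 CPM and 12.8 to 17 CPM (1 of 6 higher, 1 lower), and Schwann cell markers, 15.9 to 22.5 CPM and 14.6 to 15.5 CPM (1 of 8 higher, 2 lower). Adipocyte markers summed to 108 to 154 CPM and 83.6 to 95.0 CPM (0 of 6 higher), with Fabp4 the member that fell (-2.04, SE 0.263, adjusted p = 1.55e-07). Dermal papilla markers summed to 1012 to 1214 CPM and 1627 to 1934 CPM, 2 of 11 higher and 3 lower.

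Among the fibroblast markers themselves, 12 of 23 tested rose and 4 fell (median 0.489). Lum, lumican, a small proteoglycan of collagen fibrils, was at 157, 178 and 123 CPM without VC and 928, 946 and 875 CPM with it (2.59, SE 0.137, adjusted p = 5.3e-17). Dpt, dermatopontin, rose from 115, 132 and 56.4 CPM to 909, 724 and 590 CPM (2.88, SE 0.236, adjusted p = 5.61e-12), and Dcn, decorin, from 590, 666 and 326 CPM to 1732, 1454 and 1510 CPM (1.57, SE 0.175, adjusted p = 8.01e-09). The third control library was the lowest of its group for all 3, and no VC library came near the controls. Twist1, a mesenchymal transcription factor, rose by 1.01 (SE 0.121, adjusted p = 3.72e-08). Cd34, found on dermal fibroblasts and on endothelium, fell from 126, 144 and 142 CPM to 41.3, 55.2 and 33.0 CPM (-1.67, SE 0.126, adjusted p = 5.85e-13).

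Other matrix genes were mixed. Of 26 proteoglycan genes 8 rose and 6 fell (median 0.132), with Omd, osteomodulin, rising from 5.67, 8.74 and 10.3 CPM to 93.4, 95.0 and 79.1 CPM (3.43, SE 0.176, adjusted p = 2.1e-17) and Ogn, osteoglycin, by 1.73 (SE 0.178, adjusted p = 1.23e-09). Of 20 elastic fibre and lysyl oxidase genes 8 rose and 6 fell (median 0.0439), among them Mfap2 (2.72, SE 0.177), Fbn2 (2.50, SE 0.194) and Ltbp1, which tethers TGFb to the matrix, from 141, 132 and 128 CPM to 316, 379 and 362 CPM (1.40, SE 0.106, adjusted p = 7.74e-13). Of 24 metalloproteinases and their inhibitors 8 rose and 9 fell (median 0.0712), Mmp2 higher by 1.02 (SE 0.119) and the aggrecanase Adamts5 lower, from 854, 979 and 602 CPM to 318, 332 and 259 CPM (-1.42, SE 0.15, adjusted p = 2.37e-09).

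Ligands of the BMP and activin families and their antagonists rose more often than they fell, 9 against 1 of 14 (median 0.952). Inhbb, which forms activin B, was at 356, 288 and 328 CPM without VC and 1129, 1380 and 1496 CPM with it (2.04, SE 0.107, adjusted p = 3.5e-17). The antagonists Chrdl1 and Fst rose as well, Chrdl1 from 17.1, 20.4 and 12.1 CPM to 134, 157 and 156 CPM (3.17, SE 0.178, adjusted p = 2.59e-16) and Fst, follistatin, from 24.5, 18.5 and 18.6 CPM to 85.3, 64.8 and 84.6 CPM (1.93, SE 0.142, adjusted p = 3.41e-13). No group overlapped. Bmp6 was the member that fell, from 12.5, 12.6 and 16.1 CPM to 4.92, 4.44 and 3.58 CPM (-1.67, SE 0.123, adjusted p = 3.67e-13), and 5.74% of its exon bases are shared with Txndc5. Of the BMP target genes 5 of 15 rose and 4 fell (median 0.233), but 1 and 4 under library totals.

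Genes known as TGFb targets went both ways, 5 of 18 higher and 7 lower (median -0.217). Postn, periostin, was at 901, 1026 and 544 CPM without VC and 4521, 3590 and 4254 CPM with it (2.32, SE 0.194, adjusted p = 9.15e-12). Fn1, fibronectin, fell from 13764, 19451 and 16724 CPM to 7700, 9595 and 7398 CPM (-1.02, SE 0.155, adjusted p = 3.27e-06), as did Ccn2 (-1.04, SE 0.176) and Tgfb1 itself, from 140, 134 and 162 CPM to 56.0, 75.1 and 59.2 CPM (-1.20, SE 0.122, adjusted p = 9.36e-10). Each of these was separate between groups.

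Contractile genes of the myofibroblast fell in 9 of 20 and rose in 0 (median -0.335). Acta2, smooth muscle actin, was at 961, 981 and 1531 CPM without VC and 485, 653 and 616 CPM with it (-0.99, SE 0.162, adjusted p = 1.09e-05). Des, desmin, fell from 20.8, 21.1 and 34.4 CPM to 5.24, 4.74 and 9.75 CPM (-1.95, SE 0.258, adjusted p = 2.37e-07), and Mylk (-1.49, SE 0.179), Myh11 (-1.67, SE 0.372) and Actg2 (-1.39, SE 0.199) fell too. The third library was the highest of its group for Des in both, and the groups stayed apart. Smooth muscle and pericytes also use these genes, and the pericyte markers above moved the same way.

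Of 35 tested genes of the senescent secretory phenotype, 12 rose and 7 fell (median 0.171, and -0.00627 under library totals). Igfbp2, a carrier of insulin-like growth factors, was at 42.3, 24.1 and 22.2 CPM without VC and 572, 281 and 354 CPM with it (3.77, SE 0.257, adjusted p = 5.78e-14), and the growth factor Igf1, which is not in this list but in that of insulin-like growth factors, at 20.7, 24.7 and 17.4 CPM without VC and 81.8, 83.7 and 84.2 CPM with it (1.99, SE 0.176, adjusted p = 3.23e-11). Both were several times higher in all VC libraries. The chemokine Ccl8 rose by 3.33 (SE 0.209, adjusted p = 6.01e-15) and Cxcl5 by 1.96 (SE 0.256, adjusted p = 1.87e-07). Plau, urokinase, fell from 176, 156 and 145 CPM to 38.5, 42.9 and 39.6 CPM (-1.98, SE 0.116, adjusted p = 1.05e-15). Of the complement and MHC class I genes 7 of 19 rose and 2 fell (median 0.483), with C1s1, a complement protease, rising from 58.8, 47.3 and 21.1 CPM to 220, 144 and 188 CPM (2.12, SE 0.202, adjusted p = 2.12e-10) and its inhibitor Serping1 by 1.87 (SE 0.163, adjusted p = 2.56e-11).

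Of 30 p53 targets 12 rose and 4 fell (median 0.185), a split of 9 and 7 under library totals. Cdkn1a, the cell cycle inhibitor p21, was at 518, 529 and 514 CPM without VC and 711, 925 and 770 CPM with it (0.62, SE 0.099, adjusted p = 6.21e-06), and the phosphatase Ptprv rose by 1.09 (SE 0.127, adjusted p = 2.18e-08). Of 32 mitosis genes 5 rose and 1 fell (median 0.256), and of 38 replication genes 7 rose and 0 fell (median 0.214), to be read beside the 12.1% higher and 14.0% lower of all genes. Under library totals the mitosis list gave 2 rises and 2 falls (median 0.0786) and the replication list 4 and 3 (median 0.0374). Cdk1 was at 16.2, 17.1 and 21.0 CPM without VC and 26, 27.2 and 29.5 CPM with it (0.61, SE 0.14, adjusted p = 0.00106), separate but by little. Repair genes, to be read beside the same shares, gave 3 of 27 higher and 3 lower in nucleotide excision repair (median 0.0909), 3 of 37 and 1 in homologous recombination and Fanconi genes (0.0741), 4 of 21 and 1 in end joining (0.0885), and 2 of 21 and 1 in base excision and mismatch repair (0.128), medians that were all between -0.102 and -0.0417 under library totals.

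The reprogramming factors were measured with no doxycycline given. Myc was at 62.7, 68.7 and 64.5 CPM without VC and 38.3, 31.0 and 39.8 CPM with it (-0.84, SE 0.112, adjusted p = 2.53e-07), with no overlap. Pou5f1, which encodes Oct4, was at 1.10, 0.938 and 0.471 CPM without VC and 2.72, 2.56 and 2.88 CPM with it (1.71, SE 0.514, adjusted p = 0.0121), a low level whose call was lost without the third control library. Klf4 (-0.44, SE 0.184, adjusted p = 0.0782) and Sox2 (0.21, adjusted p = 0.699) had groups that overlapped. Klf4 was called lower in 5 of 12 alternatives. Counts from the cassette and from the cells' own genes cannot be told apart in the table. Of 22 reprogramming and pluripotency genes 10 could be tested, 2 rose and 2 fell.

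Counts of overlapping genes are uncertain where the strand used in counting is not known. Among the genes named, Tsfm overlaps 4.86% of the exon bases of Avil, Mapk7 4.63% of those of Mfap4, Nup62 4.11% of those of Atf5 and Ulk4 14.6% of those of Ctnnb1, all from the opposite strand and with counts of their own. Overlaps with predicted genes that had few or no counts covered 24.4% of Ccn2, 25.5% of Mmp2, 18.4% of C1s1, 18.8% of Spp1, 17.6% of Sfrp2, 17.3% of Gdpd2 and 14.1% of Pou5f1.

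With the same supplement in WT cells at day 0, 2385 genes rose (15.1%) and 2277 fell (14.4%), a split that became 1113 and 5414 under library totals. When each line's libraries were fitted alone, WT gave 5275 calls (2611 higher, 2664 lower) beside 2523 in D/KO cells. The WT comparison shares no library with the D/KO comparison. Of the D/KO rises 928 were also called higher in WT, 48.4% of the D/KO list and 38.9% of the WT list, while 107 were called lower there. Of the D/KO falls 886 were called lower in WT, 39.9% and 38.9% of the lists, and 131 higher. The test of the difference between the effects, D/KO minus WT, called 1097 genes positive (6.93%) and 1322 negative (8.35%). This balance was not stable: it was 1489 and 921 under library totals, 869 and 804 when the libraries compared were fitted alone, and 606 and 459 with a log2 limit of 1. The total of 2419 fell to 1547 without the first D/KO VC library.

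Wnt feedback genes gave 5 rises and 3 falls in WT (median 1.01). Axin2 was at 0.884, 1.34 and 1.69 CPM without VC and 25.0, 24.8 and 25.8 CPM with it in WT, a change of 4.26. WT controls thus had more Axin2 than D/KO controls while the levels with VC were near each other, and the difference of the changes was 2.78 (SE 0.536, adjusted p = 0.000428). Lgr5 changed by 0.49 in WT (adjusted p = 0.0838) and differed by 1.56 (adjusted p = 0.000564), and Cpz by 3.19, differing by 2.65 (adjusted p = 9.33e-08). For Nkd2 the WT change was 3.40 and the difference 0.03 (adjusted p = 0.979), for Fzd4 -2.67 and 0.13 (adjusted p = 0.844), and for Aldh1a3 -5.41 and -0.29 (adjusted p = 0.695). The difference was positive in 3 of the 15 feedback genes and negative in 1.

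Gdf6 rose by 1.23 in WT, a difference of 3.36 (adjusted p = 6.71e-07), and Col24a1 was at -0.10 there, a difference of 2.20 (adjusted p = 7.37e-07). Col1a1 went the other way, with a WT change of 2.29 and a difference of -0.77 (adjusted p = 0.0155), and Cthrc1 likewise with 3.95 and -0.87 (adjusted p = 0.0157). Dcn was at 0.14 and Ogn at -0.03 in WT, and the differences of 1.43 and 1.76 were both called. ATF4 targets gave 1 rise and 19 falls in WT (median -1.03), Trib3 falling by 4.59, and the difference was called in 7 of 24 members, 6 of them positive.

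Groups with falls in D/KO cells gave other counts in WT. Notch genes gave 4 rises and 6 falls in WT, and the difference was negative in 7 of 16: Notch1 was at 0.25 there (difference -1.32) and Notch3 at 0.60 (difference -1.64). The Notch list summed to 713 to 730 CPM in D/KO cells without VC and 448 to 493 CPM in WT. With VC the sums were alike, 417 to 485 CPM in D/KO cells and 415 to 479 CPM in WT. Contractile genes gave 4 rises and 3 falls, with a negative difference in 8 of 20. Acta2 was at 0.26 (difference -1.25, adjusted p = 0.000213) and Des rose by 1.97 (difference -3.92, adjusted p = 9.09e-09). Endothelial markers summed to 16.6 to 19.6 CPM in WT without VC and 8.29 to 11.5 CPM with it, 1 of 10 rising and 1 falling, and the difference was positive in 1 and negative in 3. Myc was at 0.05 in WT (difference -0.89, adjusted p = 0.000151), and Ctnnb1 rose by 0.26 (difference -0.66, adjusted p = 0.000159).

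Genes of division and of the interferon response also differed. In WT 31 of 32 mitosis genes and 28 of 38 replication genes rose (medians 1.68 and 1.01), and the difference was negative in 27 and 20 of them. The mitosis genes summed to 166 to 173 CPM in WT without VC and 410 to 491 CPM with it. In D/KO cells they summed to 388 to 442 CPM without VC and 436 to 471 CPM with it. The lines were thus apart without VC, and their ranges overlapped with it. Of 25 interferon-stimulated genes 23 rose in WT (median 2.47) against 1 rise and 1 fall in D/KO cells (median 0.0589), and the difference was negative in 12 and positive in 1. Their summed level in WT was 299 to 315 CPM without VC and ranged widely with it, from 582 to 1470 CPM. The D/KO riser was Ifit2 (1.46, SE 0.189, adjusted p = 1.44e-07).

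**Figure D3:**
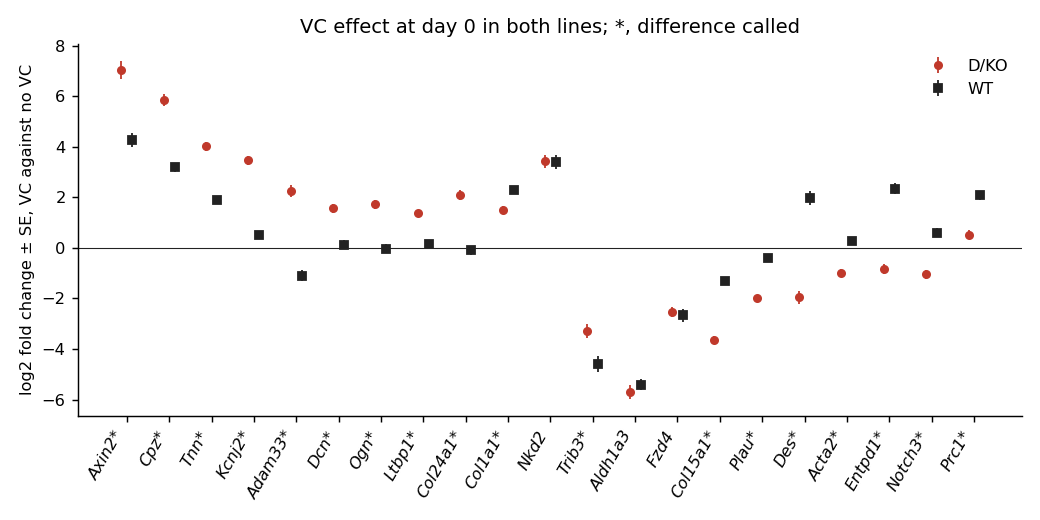
Log2 fold change with VC at day 0 for 21 genes in D/KO cells (red) and WT cells (black), with bars of 1 SE, and a star where the difference between the lines passed an adjusted p of 0.05. Nkd2, Aldh1a3 and Fzd4 carry no star and nearly coincide, while Des lies at -1.95 in D/KO and 1.97 in WT.

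In D/KO cells under doxycycline, VC was compared again at day 2, where 1753 genes rose (11.1%) and 2252 fell (14.2%), and at day 4, where 2659 rose (16.8%) and 2808 fell (17.7%). Of the day 0 rises 562 were called higher at day 2, 29.3% of the day 0 and 32.1% of the day 2 list, and of the falls 1081, 48.7% and 48.0%. At day 4 the shared rises were 413, 21.5% and 15.5% of the lists, with 367 day 0 rises called lower. The shared falls were 875, 39.4% and 31.2%, with 349 day 0 falls called higher. The difference from day 0, which uses the day 0 libraries again, was positive in 1082 genes (6.83%) and negative in 1206 (7.62%) at day 2, and in 2140 (13.5%) and 2112 (13.3%) at day 4. Under library totals these became 1948 and 818 at day 2 and 3437 and 1404 at day 4, and the fit of the libraries compared alone gave 1281 and 1532 at day 4.

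Axin2 rose by 3.34 at day 2 and 2.50 at day 4, with differences from day 0 of -3.70 (adjusted p = 8.12e-06) and -4.54 (adjusted p = 5.25e-09). Feedback genes gave 4 rises and 2 falls at day 2 (median 0.421) and 6 and 3 at day 4 (median 0.717). Apcdd1 rose by 1.91 and 0.78, and Nkd2 was at 0.51 at day 2 (adjusted p = 0.134) and 0.72 at day 4. Lgr5 fell by 1.43 at day 4. Cpz rose by 2.29 at day 2 and was at 0.07 at day 4 (adjusted p = 0.854). Rspo3 fell at each day, by 3.43 and 4.06, and Cthrc1 rose at each, by 1.72 and 1.67.

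Collagen chains gave 11 rises and 11 falls at day 2 (median -0.118) and 3 and 17 at day 4 (median -0.373). Contractile genes fell in 16 of 20 at both days (medians -1.34 and -1.64), Acta2 by 2.27 and 2.67. ATF4 targets gave 1 rise and 14 falls at day 2 and 8 and 6 at day 4 (medians -0.66 and 0.161). Trib3 fell by 3.73 and 2.19, and Asns fell by 0.72 at day 2 and rose by 0.43 at day 4. Endothelial markers gave 1 rise and 9 falls at day 2 and 3 and 2 at day 4, where Pecam1 rose by 0.97. Igfbp2 was at 0.49 at day 2 (adjusted p = 0.152) and fell by 1.23 at day 4, a difference from day 0 of -5.00 (adjusted p = 1.3e-12).

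**Figure D4:**
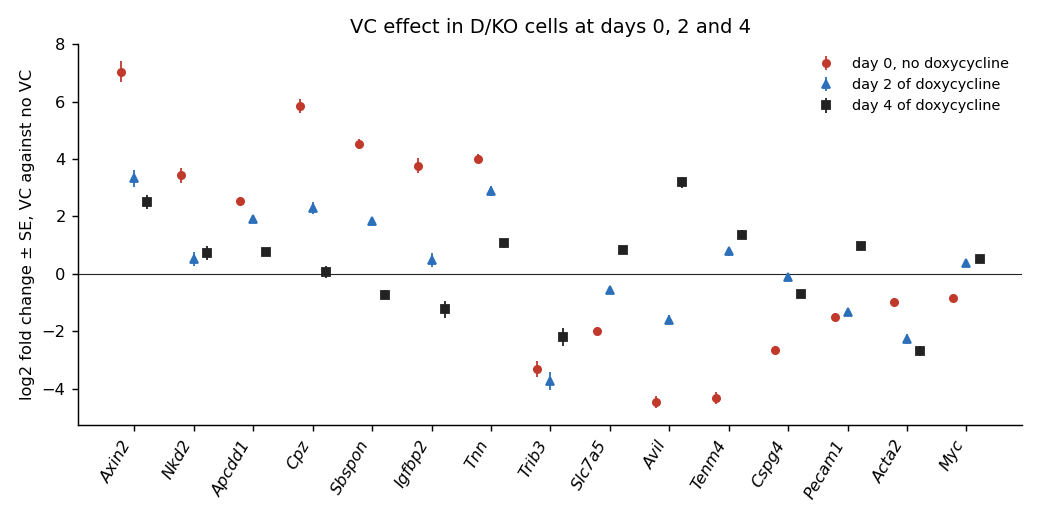
Log2 fold change with VC in D/KO cells for 15 genes at day 0 without doxycycline and at days 2 and 4 with it, with bars of 1 SE. Axin2 goes from 7.04 to 3.34 and 2.50, Acta2 from -0.99 to -2.27 and -2.67, and Avil goes from -4.46 to 3.18 at day 4.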

How the data were processed

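RNA was taken from tail tip fibroblasts and sequenced as polyA libraries in paired-end mode on a NovaSeq instrument. Per the labels, the authors trimmed reads with Trim Galore, aligned them with HISAT2 to GRCm39 and deposited raw counts per gene from featureCounts. Tool versions, the annotation release, and the handling of strand and of reads with several matches are not given in the sources used here. A column of gene lengths (other) was deposited by the authors with the counts. The second table of the series, on TGFb inhibitors, was not used here.

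The table of 36 libraries in 12 groups of 3 was fitted as a whole with edgeR 4.0.16 (limma 3.58.1, R 4.3.3): genes kept by filterByExpr (minimum count 10, minimum total 15), TMM factors, a quasi-likelihood test for each contrast, Benjamini-Hochberg adjustment and a threshold of 0.05. The common biological coefficient of variation was 0.132. Differences between VC effects were contrasts of the same fit. Alternatives were DESeq2 1.42.0 (the package the authors used), its size factors, library totals alone, other filters, a fold limit, a fit of the libraries compared alone, and leaving out each library. The scripts were tested on simulated data. Between pairs of libraries of a group the variance was, as a median over genes, 7.87 to 12.2 times counting noise for D/KO without VC and 8.79 to 11.8 times with VC, and the means over genes were 23.7 to 56.9 and 24.4 to 33.1, so that depth was not the main limit of precision and no library was a copy of another.

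Named genes were the 10 largest rises and falls among called genes with separate groups, a mean of at least 5 CPM and a proper symbol, up to 6 members of each gene list by smallest p, members of the Wnt, hydroxylase, ascorbate and HIF lists, Ercc1 and the reprogramming factors, and the 6 genes of smallest p in each difference between effects. The comparison, the gene lists and the naming rule were chosen with earlier results of these data known. Promoter sequences are RefSeq's, of GRCm38.p6, and genes were matched by symbol.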

Additional observations from a re-analysis of the deposited data

Results flagged for a closer look

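The VC effect differed between D/KO and WT cells at day 0 in 2419 genes by the interaction test, of which the 6 of smallest p within the limits on level and name are given with their differences, D/KO minus WT. Kcnj2, a potassium channel, differed by 2.96: it rose in D/KO cells from 7.16, 7.16 and 5.30 CPM to 69.9, 63.0 and 82.9 CPM, and was at 67.7, 58.4 and 66.6 CPM without VC and 82.8, 102 and 87.9 CPM with it in WT (edgeR, adjusted p = 1.35e-10). Its level with VC in D/KO cells was thus near the WT level without VC. Tnn, tenascin N, differed by 2.13, rising in D/KO cells from 75.0, 78.4 and 87.5 CPM to 1214, 1328 and 1354 CPM (4.01 against 1.89 in WT). Adam33, a metalloproteinase, differed by 3.35, rising by 2.25 in D/KO cells and falling by 1.09 in WT. The others differed the opposite way. Col15a1 differed by -2.31 (-3.62 against -1.31). Entpd1, which degrades extracellular ATP, differed by -3.19, falling by 0.85 in D/KO cells and rising by 2.34 in WT. D17H6S56E-5 differed by -2.65 (-0.80 against 1.85).

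Between day 2 and day 0 in D/KO cells the effect differed by 5.10 for Tenm4 (0.78 at day 2 against -4.32 at day 0), by 2.95 for Stmn2, a microtubule regulator (0.16 against -2.78), and by 2.73 for Itga6, the laminin receptor chain (0.92 against -1.81). It differed by 2.52 for Cspg4 (-0.12 against -2.64), by 2.09 for Bmp6 (0.42 against -1.67) and by -2.04 for Cdo1, which oxidises cysteine (-1.97 against 0.08). In all of these but Cdo1 the day 0 value was a fall that was not repeated at day 2.

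Between day 4 and day 0 the effect differed by 7.65 for Avil (3.18 against -4.46), by 5.68 for Tenm4 (1.36 against -4.32), by 3.90 for Podxl, podocalyxin (2.07 against -1.84), and by 3.20 for Itga6 (1.39 against -1.81). For Itgbl1 it differed by -3.98 (-1.35 against 2.63) and for Sbspon, whose counts are uncertain, by -5.24 (-0.72 against 4.52). All 6 were called in opposite directions on both days. Doxycycline, time and the spread of cell types differ together between these days and cannot be told apart.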

How the results depend on the processing

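No paired analysis was possible because the labels give no replicate number shared between groups. Fits of only the libraries compared have fewer samples and test other genes. There the D/KO day 0 count of 4140 became 2523 (1238 higher, 1285 lower). WT day 0 instead went up from 4662 to 5275, and D/KO day 2 from 4005 to 5267. D/KO day 4 went down from 5467 to 4031, the line difference from 2419 to 1673 and the day 2 difference from 2288 to 1876. The day 4 difference went down from 4252 to 2813 (1281 and 1532). With a limit of 1 on the log2 fold change the counts were 1495 for D/KO day 0, 1519 for WT, 1065 for the line difference (606 positive, 459 negative), 1248 for day 2, 1840 for day 4, 843 for the day 2 difference and 1915 for the day 4 difference. Leaving out each library gave 3121 to 4042 calls for D/KO day 0, 3545 to 4448 for WT, 1547 to 3008 for the line difference, 3183 to 3364 for day 2, 4529 to 5286 for day 4, 1812 to 2255 for the day 2 difference and 3777 to 4246 for the day 4 difference. The 1547 (693 and 854) came without the first D/KO VC library, which also gave the 3121. DESeq2 called 4358 for D/KO day 0 (2069 and 2289), its size factors in edgeR 4126, no filter 3757, and at least 10 counts in every library 3697.

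Library totals alone gave 1215 higher and 4101 lower for D/KO day 0, 22.9% higher beside 46.4%, 1113 and 5414 for WT, 1489 and 921 for the line difference, 1574 and 2397 for day 2, 1948 and 818 for the day 2 difference, and 3437 and 1404 for the day 4 difference. For WT, day 4, the line difference and both day differences the larger side of the calls thus changed in at least 1 alternative, day 4 having 2780 and 2635 under library totals, and for D/KO day 0 and day 2 the falls outnumbered the rises in each. No named gene that was called changed sign in any alternative run. Of 2500 values of named genes without leaving out a library, 78 lost and 50 gained a call, and of 2700 with a library left out 141 and 43. Medians of lists moved by more than their standard deviation between the VC libraries in 67 of 299 values without leaving out a library. With a library left out they did so in 83 of 300. Of the endothelial markers 9 fell in every alternative run on lists. The causes of these moves were not tested. With 3 libraries a group, genes at a few CPM or less, such as Tnfrsf19, Wnt10a and Pou5f1, rest on few counts.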

Other observations

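Counts of list members for D/KO cells at day 0 in this section are to be read beside the 12.1% higher and 14.0% lower of all genes. Immediate early genes of the AP-1 family gave 8 rises and 3 falls of 17 in D/KO cells at day 0 (median 0.201), a split of 3 and 5 under library totals. Egr1 was at 129, 179 and 119 CPM without VC and 402, 475 and 281 CPM with it (1.44, SE 0.192, edgeR adjusted p = 2.77e-07), and Fos rose by 1.58 (SE 0.343, adjusted p = 0.000551). Feedback genes of EGF and FGF signalling gave 2 rises and 5 falls of 14 (median -0.267), and Cdk inhibitors and G1 cyclins 4 and 5 of 17 (median 0.155), Ccnd1 called lower (-0.37) with overlapping groups and a call lost in 4 of 12 alternatives. Epithelial genes gave 2 rises and 8 falls of 15 (median -0.765), with Krt19, a simple keratin, from 9.61, 6.33 and 5.24 CPM to 1.36, 2.41 and 1.68 CPM (-1.96, SE 0.261, adjusted p = 2.69e-07). At day 4 the same list gave 12 rises and 0 falls with VC, and Krt19 rose by 3.07.

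Among metabolic lists, to be read beside the same shares, NRF2 targets gave 5 rises and 3 falls of 22 (median 0.0791). Among the rises were Nqo1 (1.30, SE 0.193) and the heme oxygenase Hmox1, from 203, 244 and 237 CPM to 424, 423 and 502 CPM (0.98, SE 0.142, adjusted p = 1.29e-06). Cholesterol synthesis gave 3 and 6 of 23 (median -0.246) and glycogen metabolism 3 and 5 of 16 (median -0.207), with Gys1, glycogen synthase and a classic GSK3 substrate, at 146, 167 and 186 CPM without VC and 105, 120 and 92.7 CPM with it (-0.65, SE 0.1, adjusted p = 3.69e-06). Insulin-like growth factor genes gave 3 and 2 of 14 (median -0.00966), cadherins and factors of epithelial-mesenchymal transition 3 and 3 of 13 (median 0.013), and skeletal muscle markers 1 and 0 of 2 (median 1.11). Genes of the mitochondrial genome gave 4 rises and 0 falls of 12 (median 0.88), of which mt-Co1 and mt-Cytb had overlapping groups and calls lost in 4 and 5 of 12 alternatives, library totals among them. The list gave 2 rises under library totals, 9 with no filter on low counts, 2 without the first control library or the second VC library, and 8 without the third VC library. Its share of counts was 0.257% to 0.722% without VC and 0.469% to 1.05% with it, ranges that overlap.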
